A study of Mus musculus with 28 samples.

Results

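The genes described here were 9 transcription factors that set the fate of keratinocytes, the main cells of the epidermis: Trp63, Tfap2a, Tfap2c, Klf4, Grhl1, Grhl3, Ovol1, Zfp750 and Prdm1. They were chosen by symbol from a table of 24946 genes, with no measured value in the rule. All 9 were listed, and all 9 passed the filter on low values in each of 4 comparisons. RNA-seq was made from mouse epidermis in which Kdm6a (Utx), the X-linked gene for a demethylase of histone H3 lysine 27, was floxed and a Krt14-driven Cre transgene was present or absent. The Krt14 promoter is active in basal keratinocytes, so the transgene models a loss in keratinocytes and not in the immune cells or melanocytes among them.

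Female controls carried Cre-; Utx fl/fl and female conditional knockouts (cKO) carried Cre+; Utx fl/fl. Male cKO animals carried Cre+; Utx fl/Y. Male controls carried Cre-; Utx fl/Y, except young male control 3, which carried Cre-; Utx +/Y. All controls were thus Cre-negative, and an animal with Cre and no floxed allele was not among the groups. Young and aged were known only from the titles of the tables, with no age in days. The tables held 4 controls and 5 cKO for young females, 3 and 3 for young males, 2 and 2 for aged females, and 3 and 3 for aged males. Libraries are numbered within a group in the order of the samples. The labels do not state that libraries came from separate animals, so p-values measure the spread between these samples, part of which may be technical.

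As background, p63, the product of Trp63, keeps basal keratinocytes in their state and opens the enhancers of epidermal genes. AP-2α and AP-2γ (Tfap2a and Tfap2c) act beside it. As cells leave the basal layer, Klf4, the Grainyhead-like factors Grhl1 and Grhl3, Ovol1, Zfp750 and Prdm1 drive terminal differentiation and the building of the barrier, and in human keratinocytes ZNF750, the counterpart of Zfp750, is a direct p63 target that acts upstream of KLF4.

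The deposited values are read counts that the authors normalized within each table. They summed to 19.3 to 31.1 M per library, with 16405 to 17923 genes above 0. Because the tables were scaled separately, levels from different tables are given side by side and compared only within a table. In bulk RNA, fewer cells of a type and less RNA per cell cannot be told apart. Kdm6a was lower in cKO in young females, by limma's test (log2 change -0.50, SE 0.11, adjusted p = 0.0300), and in aged females (-1.21, SE 0.12, adjusted p = 0.0258). In young males the change was -0.93 (SE 0.18, adjusted p = 0.902), with each cKO library below each control. In aged males 3 of the 6 libraries went against their labels, control 5 and control 6 by Gh and cKO 5 by Kdm6a and Gh. Kdm6a values in that table were 1090, 1224 and 1511 in the libraries labelled control 4 to 6 and 584.5, 1322 and 673 in those labelled cKO 4 to 6, with cKO 5 inside the range of the controls. Gh, at most 2.58 in the young controls and 331 to 699.9 in young cKO libraries, stood at 2443 in aged male control 5, at 559 in aged male control 6 and at 0 in aged male cKO 5, while aged male control 4, cKO 4 and cKO 6 followed their labels in both genes. Both aged female cKO libraries, unlike the female controls, nearly lacked Xist, the X-inactivation RNA (17.1 and 14.4, against 18431 and 20923). Genotype and whatever lies behind that difference cannot be told apart in the aged female table.

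No factor was called in any of the 4 comparisons, where called means an adjusted p below 0.05 in limma on log2(value + 1), adjusted over all tested genes. The background differed widely. Of all tested genes, 3.94% were called in young females, 0.0146% in young males, 0.669% in aged females and 0.014% in aged males. At an unadjusted limma p below 0.05, 2 of the 9 factors passed in young females, where 16.6% of all genes did. None of the 9 passed it in the other comparisons, against 2.33% of all genes in young males, 14.3% in aged females and 0.83% in aged males. The lowest adjusted p of a factor was 0.112 in young females, 0.9999 in young males, 0.455 in aged females and 0.9995 in aged males. The authors' deposited table for young females, which as held here ends in alphabetical order at Olfr577 and so lists only Klf4, Grhl1 and Grhl3 of the 9, called 1 of them, Grhl3, where 7.18% of the genes with an adjusted p were called. The authors' deposited tables for young males, aged females and aged males list the same 3 factors and called none of them, against 0.126%, 4.5% and 0.0081% of the genes there.

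A missed threshold does not show that a factor was unchanged, and the 95% intervals give a range for the size of each change. Each interval was taken singly, with no adjustment for their number, so some may miss the true change. In aged females they cover genotype together with whatever lies behind the Xist difference. Over the 36 changes of 9 factors in 4 comparisons, the interval lay within 1.5-fold in either direction for 26 and within 2-fold for 35. The exception to the last was Ovol1 in aged males, whose interval reached 2.12-fold higher. The aged male intervals rest on the labels, which 3 libraries went against, and without that table the counts were 22 and 27 of 27. Without those 3 libraries, 0 of 9 aged male intervals lay within 1.5-fold and 5 within 2-fold. The interval stayed within 1.5-fold for 7 of 9 factors in young females, 8 in young males, 7 in aged females and 4 in aged males.

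**Figure D1:**
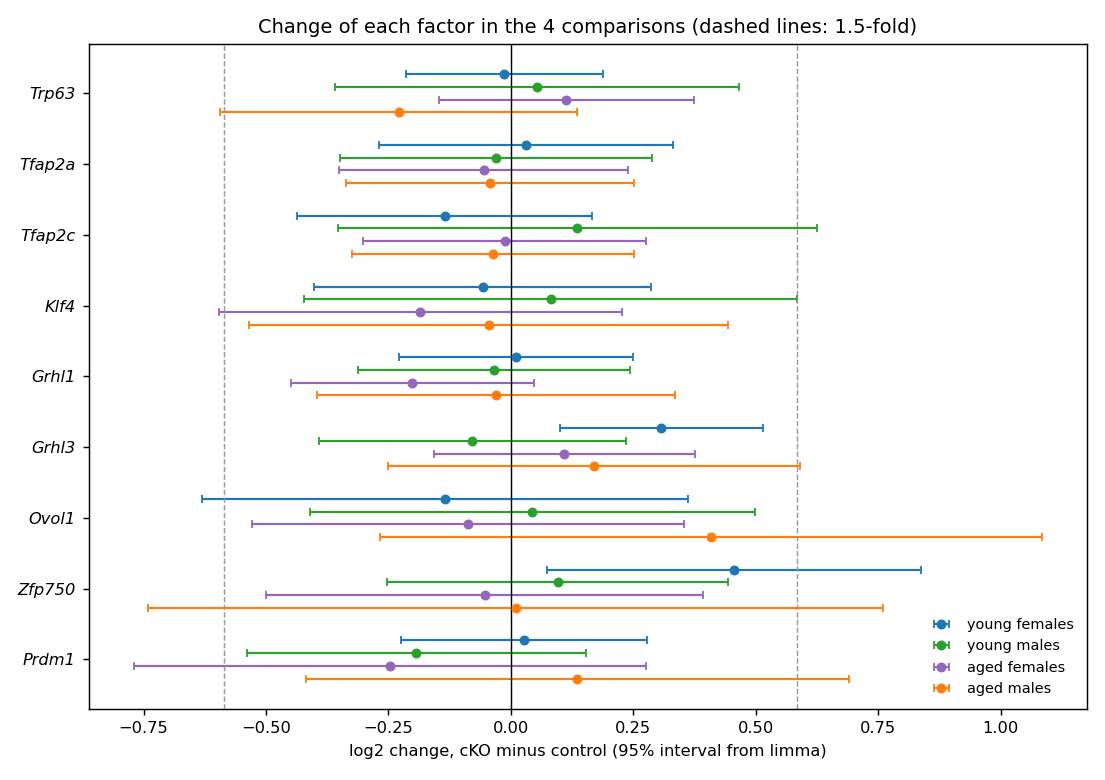
Log2 change of each factor, cKO minus control, with its 95% limma interval, in young females (blue), young males (green), aged females (purple) and aged males (orange); the dashed lines mark 1.5-fold. The intervals of Grhl3 and Zfp750 in young females lie above 0, and neither was called after adjustment over all genes.

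Grhl3 and Zfp750 had the largest changes of the 9 in young females, and both were higher in cKO. Grhl3 encodes a factor needed in the mouse for closure of the skin barrier and of the neural tube. It lies at chr4:135541888-135573630 on the minus strand of GRCm38. Its normalized read counts in young female controls 1 to 4 were 2298, 2441, 2473 and 2181, and those in cKO 1 to 5 were 3157, 2653, 3317, 2623 and 2821. All 5 cKO libraries were above all 4 controls, a separation that 8.63% of all tested genes showed in this table. The log2 change was 0.31 (SE 0.094), or 1.24-fold with a 95% interval of 1.07 to 1.43, and limma's adjusted p was 0.112. With the library labels exchanged in every way (exact permutation test, 2-sided), p was 0.0159, where 0.00794 is the smallest that this design allows. In the authors' deposited table the log2 change was also 0.31, with an adjusted p of 0.0427.

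The promoter of Grhl3 is printed because Grhl3 was the 1 factor called in the authors' deposited table. The window runs from 250 bases before to 50 bases after the RefSeq start on GRCm38.p6, at chr4:135573583-135573882, minus strand, and capitals mark matches to CACCC, a motif of Klf factors.
Grhl3 promoter: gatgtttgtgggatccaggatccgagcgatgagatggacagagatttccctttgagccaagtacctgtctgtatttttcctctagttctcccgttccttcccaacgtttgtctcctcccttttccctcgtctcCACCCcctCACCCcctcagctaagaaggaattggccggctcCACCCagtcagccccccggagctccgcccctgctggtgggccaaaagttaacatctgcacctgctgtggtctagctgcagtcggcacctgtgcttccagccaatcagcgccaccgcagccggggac
The window held CACCC at 3 places, and CACCC on either strand is held by 57.5% of 32851 mouse promoter windows. It held no match on either strand to AACCGGTT, a Grainyhead-like motif found in 0.146% of the windows, or to GCCNNNGGC, an AP-2 motif found in 16.6%. No match says only that these letters are not in the window.

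Zfp750, a zinc-finger factor of late differentiation, lies at chr11:121510978-121519333 on the minus strand. Its values in young female controls 1 to 4 were 4536, 3640, 3701 and 5728, and those in cKO 1 to 5 were 5231, 5438, 4991, 6365 and 8133. Control 4 was above 3 of the 5 cKO libraries, so the groups overlapped, and cKO 5 was the highest. The log2 change was 0.46 (SE 0.17), or 1.37-fold with an interval of 1.05 to 1.79, with a limma adjusted p of 0.204. The exact permutation test gave p = 0.0635.

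The titles of the young libraries fall into 3 series of numbers (U01, U02 and U04), each with controls and cKO. Grhl3 was higher in cKO within each series, by log2 0.29, 0.25 and 0.37, and so was Zfp750, by 0.39, 0.61 and 0.51. Both U04 libraries were high for Zfp750, control 4 at 5728 and cKO 5 at 8133. With the series as a block in the limma fit, both factors were called: Grhl3 rose by 0.30 (SE 0.082, adjusted p = 0.0359) and Zfp750 by 0.48 (SE 0.091, adjusted p = 0.00656). In that fit 14.5% of all genes were called, 6.07% as higher in cKO. The same block called 0 of the 9 factors in the other tables, against 0.0509% of all genes in young males, 2.94% in aged females and 0.014% in aged males. The labels do not say what a series of numbers stands for. With 1 library left out of the blocked fit, the call of Grhl3 held only without cKO 2 or cKO 4 (adjusted p from 0.0125 to 0.126), and that of Zfp750 was lost without control 3 alone (0.00391 to 0.0544).

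**Figure D2:**
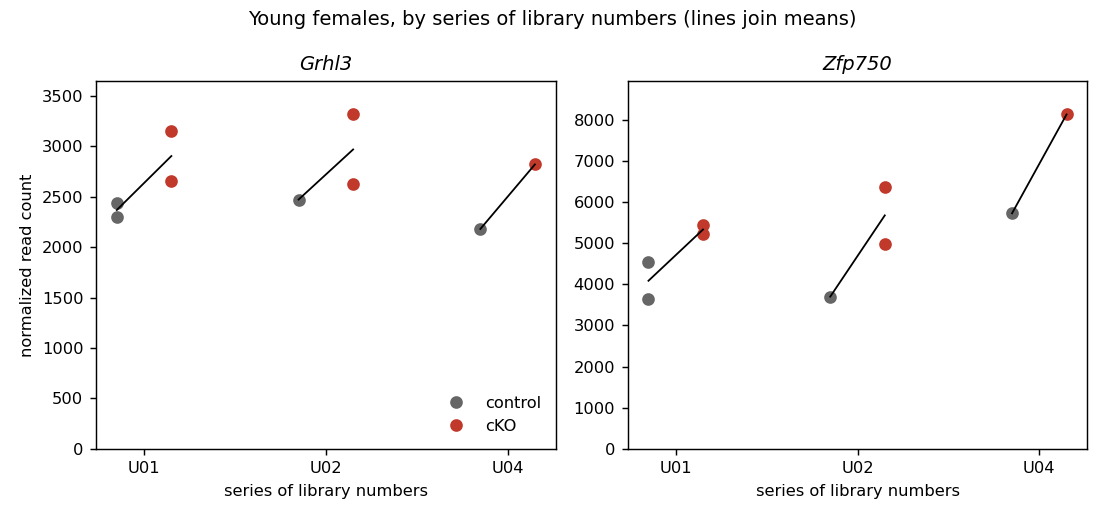
Normalized read counts of Grhl3 and Zfp750 in the 4 control (grey) and 5 cKO (red) libraries of young females, by series of library numbers; lines join the group means within a series. Each line rises, and for Zfp750 the U04 control at 5728 is higher than some cKO libraries of other series.

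The whole of Zfp750 lies within Tbcd, a gene on the plus strand that encodes a tubulin-folding cofactor, at chr11:121451949-121617164, and the annotated exons of the pair share 0 bases. Per the labels' protocols the library kit keeps the strand, and whether counting used it is not stated. In young females Tbcd stood at 1089 to 1391 in controls and 864 to 1014 in cKO, with a log2 change of -0.32 (SE 0.10, limma adjusted p = 0.119). With the series as a block it was called lower (-0.30, limma adjusted p = 0.0278), the direction opposite to Zfp750. Tfap2a likewise overlaps the antisense gene Gm26688, at 16.5 to 46.2 in young females, and the antisense genes Gm47061 and Gm47067. Ovol1 overlaps the antisense gene AC126029.1 and the pseudogene Gm31166, and Trp63 the small nuclear RNA gene Gm24928 and the pseudogene Gm27005.

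Markers of other cells moved in the same table. The summed values of 7 Langerhans and myeloid markers were 15547 to 21277 in young female controls and 21535 to 33883 in cKO, without overlap. Of these 7, 1 rose, Csf1r (log2 change 0.78, limma adjusted p = 0.0170), and the list's median change was 0.50. The sums of 8 hair matrix and shaft markers were 877 to 1072 in controls and 631 to 688 in cKO, also without overlap, with Krt35 and Krt86 under 10 in every library. The summed keratinocyte markers overlapped, at 647817 to 753081 in controls and 623433 to 885759 in cKO, as did the sums of the melanocyte, T cell, fibroblast, endothelium, skeletal muscle and sebaceous gland lists. The part of these cells in the values of Grhl3 and Zfp750 was not tested.

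The other 7 factors changed by -0.14 to 0.03 on the log2 scale in young females, with limma adjusted p of 0.665 or more. Trp63 (chr16:25683763-25892102, plus strand) had the least spread of the 9. Its values in controls 1 to 4 were 11857, 12170, 12707 and 12771, and those in cKO 1 to 5 were 11632, 11405, 11652, 13802 and 12967. The groups overlapped fully, and the log2 change of -0.01 (SE 0.091) had an interval from -0.21 to 0.19. Rescaling the libraries turned the sign of this change, to 0.08 under quantile normalization and 0.04 with equal totals.

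Tfap2a (chr13:40715302-40738376, minus strand) changed by 0.03 (SE 0.14), with 2545 to 3806 in controls and 2564 to 3427 in cKO. Tfap2c (chr2:172549593-172558622, plus strand) changed by -0.14 (SE 0.14), with 2674 to 3937 in controls and 2502 to 3269 in cKO. Neither AP-2 factor separated the groups. Klf4 (chr4:55527143-55532466, minus strand), a zinc-finger factor without which newborn mice lack a working barrier, ranged from 26076 to 38541 in controls and from 27682 to 39978 in cKO, a change of -0.06 (SE 0.16). Grhl1 (chr12:24572283-24617391, plus strand), which regulates desmosomal cadherins, ranged from 7185 to 9302 in controls and from 7352 to 9409 in cKO, a change of 0.01 (SE 0.11). The share of Grhl3 in the Grainyhead-like family is given with the levels per length.

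Ovol1 (chr19:5549136-5560646, minus strand), a zinc-finger repressor that restrains proliferation as cells leave the basal layer, was the most variable of the 9 in young females. It ranged from 1955 to 4281 in controls and from 2182 to 3911 in cKO, with a change of -0.14 (SE 0.22). Prdm1 (chr10:44437177-44528501, minus strand), the repressor Blimp1, ranged from 907 to 1224 in controls and from 951 to 1237 in cKO, a change of 0.03 (SE 0.11). The groups overlapped for both genes.

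**Figure D3:**
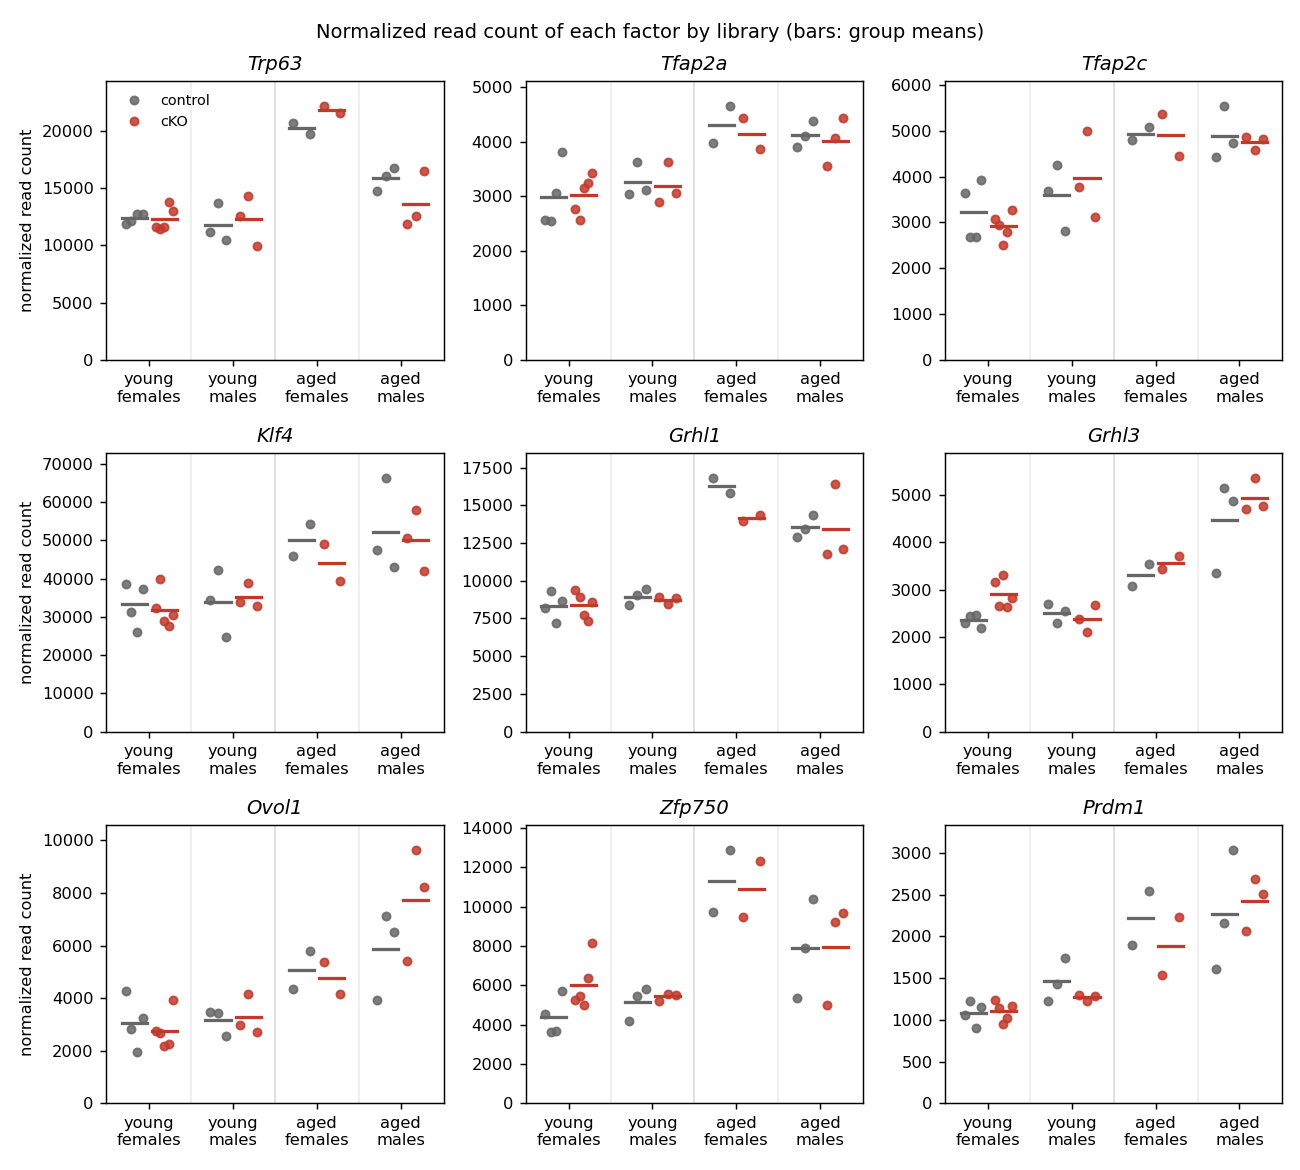
Normalized read count of each factor in each library, by table, with controls in grey, cKO in red and bars at the group means; each axis starts at 0, and the tables were scaled separately, so levels compare only within a table. Grhl3 in young females is the panel where the 5 cKO libraries, at 2623 to 3317, lie above the 4 controls, at 2181 to 2473.

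In young males the 9 changes ran from -0.19 for Prdm1 to 0.14 for Tfap2c, and 0 of the 9 factors separated the groups, as 5.88% of all tested genes did. Grhl3 stood at 2687, 2293 and 2554 in controls 1 to 3 and at 2389, 2093 and 2670 in cKO 1 to 3, so the groups were mixed. Its log2 change was -0.08 (SE 0.14, limma adjusted p = 0.9999). Zfp750 stood at 4165, 5439 and 5823 in controls and at 5221, 5573 and 5531 in cKO, a change of 0.10 (SE 0.15). Only control 1 lay below the cKO range. Prdm1 stood at 1229, 1431 and 1738 in controls and at 1296, 1228 and 1286 in cKO. The highest of these is control 3, which carries no floxed allele. With 3 against 3 libraries, an exact permutation test cannot go below p = 0.1.

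In aged females the changes ran from -0.25 for Prdm1 to 0.11 for Trp63. Trp63 stood at 20729.5 and 19733 in controls 5 and 6 and at 22154 and 21586 in cKO 6 and 7, higher in both cKO libraries, with a log2 change of 0.11 (SE 0.11, limma adjusted p = 0.721). Grhl1 stood at 16802 and 15811 in controls and at 13972 and 14387 in cKO, lower in both cKO libraries, with a change of -0.20 (SE 0.10, limma adjusted p = 0.455). These were the 2 of 9 factors whose groups did not overlap, against 44.3% of all tested genes. Grhl3 stood at 3077 and 3550 in controls and at 3433 and 3699 in cKO, with a change of 0.11 (SE 0.11), and Zfp750 at 9726 and 12879 against 9451 and 12307, with a change of -0.05 (SE 0.18). The summed sebaceous gland markers were 63342 to 70481 in these controls and 38765 to 49189 in cKO, without overlap. Those of the hair matrix and shaft (1152 to 2584 against 704 to 896) and of endothelium (179.4 to 251 against 125 to 178.3) were also lower in both cKO libraries. The T cell sums (2260 to 2386 against 2936 to 3871) and fibroblast sums (1034 to 1125 against 1239 to 1315) were higher in both. The genes went both ways, with 2 of 5 endothelium genes and 4 of 6 fibroblast genes above 0 in log2 change. The keratinocyte, melanocyte, Langerhans and myeloid, and skeletal muscle sums overlapped. With 2 against 2 libraries such separation is common, as the 44.3% of all tested genes shows. The part of these cells in the values of Trp63 and Grhl1 was not tested.

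In aged males the changes ran from -0.23 for Trp63 to 0.41 for Ovol1, and 0 of the 9 factors separated the groups, against 4.57% of all tested genes. Ovol1 stood at 3922, 7140 and 6520 in the libraries labelled control 4 to 6 and at 5394, 9632 and 8214 in those labelled cKO 4 to 6. The groups overlapped, and the log2 change of 0.41 (SE 0.29) had a limma adjusted p of 0.999. Libraries close in library number were put in pairs here, a pairing that the labels do not give. Within each pair the library labelled cKO was higher for Ovol1. The differences were 0.46 for control 4 and cKO 4, 0.43 for control 5 and cKO 5, and 0.33 for control 6 and cKO 6. With those pairs as a block the log2 change of 0.41 had an SE of 0.084 and a limma adjusted p of 0.905. Only control 4 and cKO 4 make a pair that followed its labels in Kdm6a and Gh. Control 5, cKO 5 and control 6 went against theirs, so the pairs do not repeat 1 contrast of genotype. Trp63 stood at 14732, 16037 and 16794 in the libraries labelled control and at 11852, 12557 and 16546 in those labelled cKO, a change of -0.23 (SE 0.16).

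Leaving out the 3 aged male libraries that went against their labels left 1 control and 2 cKO, with the lone control assumed to vary like the cKO. Then 0 of 9 factors were called, against 0.386% of 15028 tested genes. Ovol1 then changed by 0.76 (SE 0.34) and Trp63 by -0.07 (SE 0.33), Grhl3 by 0.50 (SE 0.30) and Prdm1 by 0.51 (SE 0.32). The control that remains, control 4, was below its group mean for all 9 factors. It also had the lowest summed keratinocyte markers of its table, 1068750 against 1168790 to 1269880 in the libraries labelled cKO. Its summed skeletal muscle markers were the highest, 11469 against at most 599 in the libraries labelled cKO. Their part in these changes was not tested.

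The cKO changes were also compared between tables in 1 limma fit over the 25 libraries, and 0 of 36 differences were called. The fit shares 1 estimate of the spread of each gene, so the aged male libraries that went against their labels enter every comparison. Differences with aged males rest on those labels, and differences with aged females also carry whatever lies behind the Xist difference. Of all 13448 genes in that fit, 0% were called between young females and young males, 0% between aged and young females, 0% between aged and young males, and 0.0223% between aged females and aged males. The change of Grhl3 was higher by 0.39 in young females than in young males (SE 0.18, limma unadjusted p = 0.0417 and adjusted p = 0.9995), with an interval from 0.02 to 0.76. The difference for Zfp750 was 0.36 (SE 0.33), with an interval from -0.32 to 1.04. The interval for Zfp750 rests on the spread in all tables. Fitted by table, the residual SD of Zfp750 was 0.30 in young females, 0.18 in young males, 0.28 in aged females and 0.50 in aged males. In this fit Grhl3 and Zfp750 are thus not shown to change in females alone. The young female and aged female changes of Zfp750, 0.46 and -0.05, differed by -0.51 (SE 0.38, adjusted p = 0.9999).

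For heterozygous young females (Cre+; Utx +/fl) only the authors' deposited table was at hand, and no test was made here. It gives log2 changes against controls of -0.01 for Klf4 (SE 0.21), -0.07 for Grhl1 (SE 0.16) and 0.07 for Grhl3 (SE 0.14), each with an adjusted p of 0.9999, where 0.271% of the genes with an adjusted p were called. The authors' deposited table for young female cKO gives -0.06, 0.01 and 0.31 for these genes. Its control means differ from those beside the heterozygous animals, for Grhl3 2348 against 2658 and for Klf4 33291 against 36378. Whether both comparisons used the same control libraries is not stated.

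Per kilobase of annotated exon, Klf4 was the most abundant of the 9 in each table and genotype, and its range did not overlap that of the next factor. In young female controls it stood at 10919 ± 1892 normalized reads per kilobase (SD, n = 4). Grhl1 (1506 ± 161), Trp63 (1475 ± 52.3) and Zfp750 (1362 ± 301) followed and overlapped each other. Ovol1 (881 ± 277), Tfap2c (879 ± 178) and Grhl3 (842 ± 48.4) formed a further overlapping set. The ranges of Zfp750 and Ovol1 touched as well. Tfap2a (609.7 ± 121) and Prdm1 (195 ± 24.8) had the lowest means in every table and genotype and did not overlap each other. In young female controls the range of Tfap2a, 519 to 776, overlapped those of Ovol1 (560 to 1227) and Tfap2c (727 to 1070).

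The order of the middle factors differed between young female controls and cKO. In cKO, Zfp750 was next after Klf4 at 1866 ± 398 per kilobase (SD, n = 5), and it overlapped Grhl1 at 1516 ± 153. Grhl3 moved to the fifth place with a mean of 1045 (range 940.4 to 1189), above the range of Tfap2c at 791 ± 78.8 and overlapping Ovol1 at 789 ± 198. Within families, also per kilobase, Grhl3 made up 33.4% of the summed Grhl1, Grhl2 and Grhl3 in young female controls (range 30.8% to 37.2%) and 37.9% in cKO (35.1% to 42.5%), with overlap. Trp63 made up 69.9% and 69.8% of the p53 family (Trp53, Trp63 and Trp73), and Klf4 72.3% and 74.2% of 5 Klf genes. Ovol1 made up 81.0% and 83.6% of Ovol1 and Ovol2.

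Several libraries were high or low for most of the factors at once. In young females, control 4 was above its group mean for 8 of the 9 factors and cKO 5 for 7, and both carry U04 numbers. Control 3 was above it for 3 of 9 and cKO 3 for 2, and both carry U02 numbers. The other U02 library, cKO 4, was above it for 3. Of the U01 libraries, control 1 and cKO 2 were above it for 4, control 2 for 3 and cKO 1 for 6. In young males the U04 libraries, control 2 and cKO 2, were above it for 7 and 6 of 9. The U02 libraries, control 3 and cKO 3, were above it for 4 of 9, and so were the U01 libraries, control 1 and cKO 1. The residual SD of limma's fit fell with the series as a block for 8 of 9 factors in young females, 7 in young males, 4 in aged females and 7 in aged males. Its median over all tested genes fell likewise, from 0.26 to 0.16 in young females and from 0.26 to 0.16 in young males. It fell from 0.15 to 0.10 in aged females and from 0.28 to 0.16 in aged males. The fall was thus not particular to the 9 factors.

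Zfp750 in aged males shows the size of this spread. It stood at 5359, 7905 and 10364 in the libraries labelled control 4 to 6 and at 5016, 9232 and 9668 in those labelled cKO 4 to 6. The lowest of each group are close in library number, and the log2 change was 0.01 (SE 0.32). Its residual SD of 0.50 was higher than that of 78.8% of all tested genes, whereas in young females that of Trp63, 0.097, was higher than that of 6.45%.

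**Figure D4:**
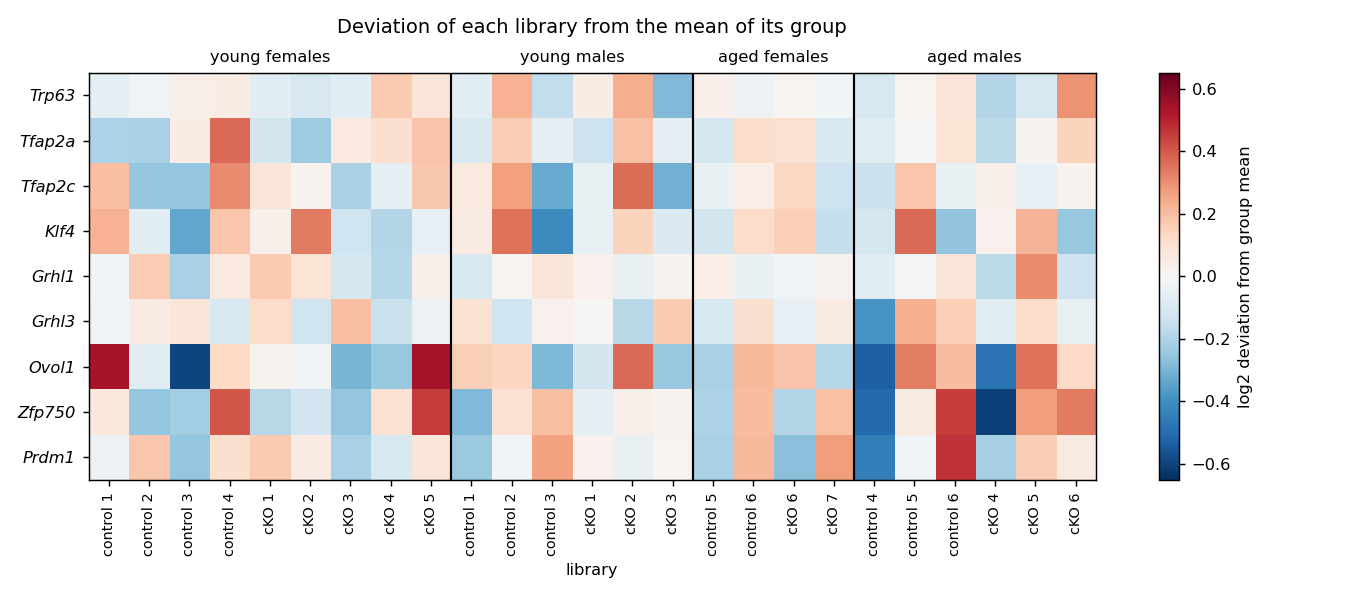
Log2 deviation of each of the 9 factors (rows) from the mean of its group in each of the 25 libraries (columns), by table; red is above the group mean and blue below. Aged male control 4 is below its group mean for all 9 factors, and Ovol1 and Zfp750 show the strongest colours.

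Genes that work with or under these factors were taken as 3 lists. Of 57 tested other epidermal transcription factors, 1 rose and 3 fell in young females, where 1.54% of all tested genes rose and 2.4% fell, with a median change of 0.05 against -0.01 over all tested genes. Ehf, an ETS factor of differentiating epithelia, rose by 0.99 (limma adjusted p = 0.0423). Sox15 (-3.25), Dlx5 (-0.91) and Hoxc13 (-0.63), the last a hair-shaft factor also among the hair markers above, fell. Of 30 p63-linked basal and adhesion genes, 0 rose and 2 fell, with a list median of -0.07. Igfbp3, an IGF-binding protein, was one of those that fell, by 1.22.

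Of 39 tested suprabasal and granular layer genes, 2 rose and 1 fell in young females, with a median of -0.08. Krt1, a suprabasal keratin, rose from 37748 ± 4979 (SD, n = 4) to 90255 ± 16224 (SD, n = 5), with a limma adjusted p of 0.00322. Ivl, the cornified envelope protein involucrin, rose from 692 ± 193 to 1735 ± 441 in the same libraries (limma adjusted p = 0.00834). Aloxe3, a lipoxygenase of barrier lipids, fell by 0.47. In aged females Ehf rose by 0.97 (limma adjusted p = 0.0388), Igfbp3 fell by 1.11 (adjusted p = 0.0391) and Lce1d, a late cornified envelope gene, fell by 1.77 (adjusted p = 0.0480), 1 gene of each list, where 0.171% of all tested genes rose and 0.498% fell. In young males and in aged males 0 genes of the 3 lists were called, where only 0.0146% and 0.014% of all tested genes were.

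**Figure D5:**
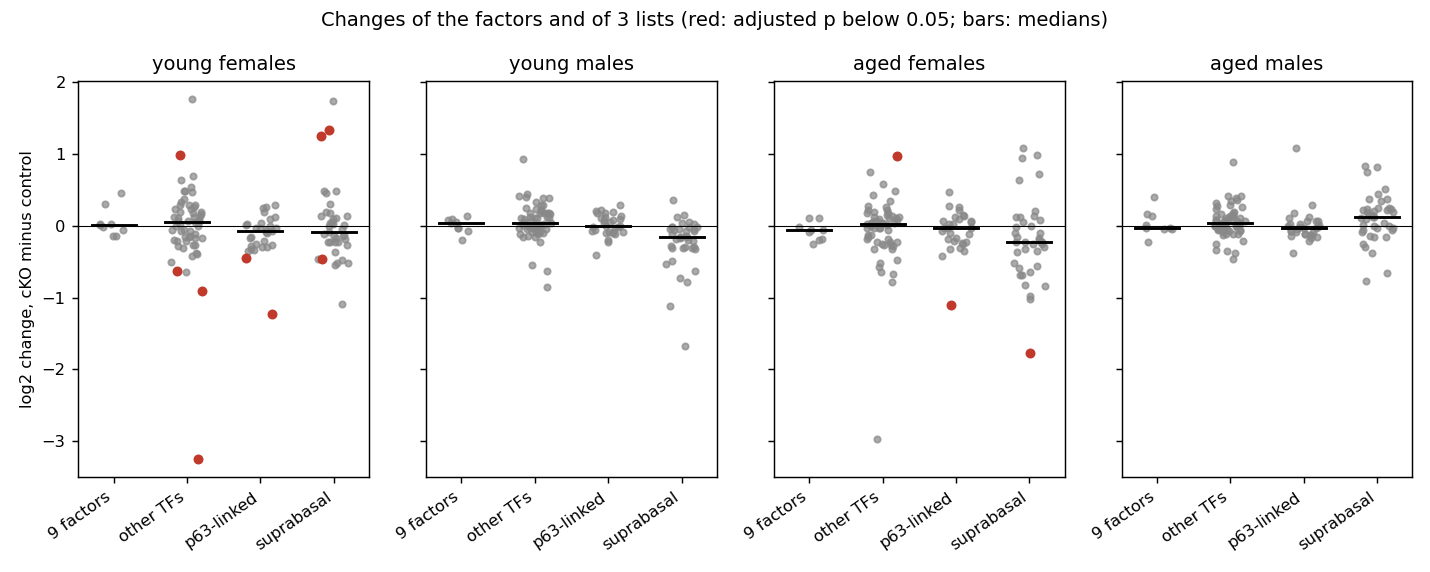
Log2 change, cKO minus control, of the 9 factors and of 3 lists (other epidermal transcription factors, p63-linked basal and adhesion genes, suprabasal and granular layer genes) in each table; each point is a gene, red points have an adjusted p below 0.05 and bars are list medians. The 9 factors lie between -0.25 and 0.46 in all 4 tables, and single genes of the lists lie farther out.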

How the data were processed

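Per the labels' protocols, RNA was column-purified, selected for poly(A) and made into strand-keeping libraries. Tools and build named, per the submitters' processing notes, are STAR, DESeq2 and GRCm38 (mm10), with no role or version; the counter and annotation are not given in the sources used here. The authors deposited normalized signal values per gene and library in 4 tables, and 5 comparison tables with log2 fold changes, a test score, p-values and adjusted p-values. The values are not whole counts, and whole reads could not be recovered, so depth in reads is unknown and limma replaced a quasi-likelihood count test. Of 24972 rows, 26 names turned into dates were dropped. A gene was fitted when as many libraries as the smaller group held had a value of 10 or more. Fits used limma 3.58.1 (R 4.3.3, intensity trend) on log2(value + 1), which understates changes of low genes; Benjamini-Hochberg adjustment ran over all tested genes, at a threshold of 0.05. The script was tested on simulated data. Values of 3 heterozygous libraries were not analysed here. All 9 factors are named in every comparison, and of each list at most 4 called genes per direction, except 1 gene that is not reported here. The factors, lists and tests were chosen with earlier results of these data known. Promoters are from RefSeq (GRCm38.p6), where 5 of the 9 factors matched; positions are from GENCODE (GRCm38). Figures were drawn with matplotlib 3.10.9 in Python 3.11.15. Alternatives covered pseudocounts, filters, scaling, the trend, a block for library numbers and left-out libraries; the replicate numbers follow sample order and pair nothing.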

Additional observations from a re-analysis of the deposited data

How the results depend on the processing

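No factor was called in young males, aged females or aged males, and no difference between tables was called, under any alternative run. In young females the block for library number series gave 2 called factors, Grhl3 and Zfp750, and 0 to 2 with 1 library also left out, an alternative chosen after seeing the data; the cause was not tested. The block changed the call of no other factor; it also called Tbcd lower in young females, where it raised the calls over all genes from 547 to 2011. The labels carry no replicate numbers, so it is no pairing by design. Of 353 single values under all alternatives but left-out libraries taken 1 at a time, 342 kept direction and call, and the 2 that became calls were Grhl3 and Zfp750 under the block. The other 9 changed sign, all uncalled. Under quantile normalization these were Trp63 in young females (0.084) and Zfp750 (0.054), Tfap2a (0.034) and Tfap2c (0.069) in aged females. With equal library totals they were Trp63 in young females (0.036), Tfap2c in aged females (0.024) and Zfp750 in aged males (-0.010). Without aged male control 5, control 6 and cKO 5 they were Tfap2a (0.029) and Tfap2c (0.13). The cause was not tested. The median change of all genes stayed between -0.022 and 0.041 under the settings other than left-out libraries. With 1 library left out, 49 of 275 values changed sign, and 0 factors were called in any table. In young females the ranges were -0.056 to 0.013 for Trp63, -0.040 to 0.15 for Tfap2a, -0.17 to 0.018 for Klf4, -0.060 to 0.065 for Grhl1, -0.33 to 0.043 for Ovol1 and -0.057 to 0.087 for Prdm1; Grhl3 stayed at 0.26 to 0.34 and Zfp750 at 0.34 to 0.59. In young males they were -0.064 to 0.20 for Trp63, -0.13 to 0.050 for Tfap2a, -0.045 to 0.29 for Tfap2c, -0.13 to 0.26 for Klf4, -0.083 to 0.0037 for Grhl1, -0.16 to 0.011 for Grhl3, -0.14 to 0.17 for Ovol1 and -0.049 to 0.19 for Zfp750. In aged females they were -0.17 to 0.056 for Tfap2a, -0.15 to 0.12 for Tfap2c, -0.30 to 0.12 for Ovol1, -0.26 to 0.15 for Zfp750 and -0.52 to 0.024 for Prdm1. In aged males they were -0.12 to 0.042 for Tfap2a, -0.11 to 0.054 for Tfap2c, -0.17 to 0.14 for Klf4, -0.18 to 0.055 for Grhl1, -0.023 to 0.29 for Grhl3, -0.24 to 0.31 for Zfp750 and -0.090 to 0.37 for Prdm1. Of those that kept their sign, the ranges were also wide for Ovol1 (0.14 to 0.65) and Trp63 (-0.38 to -0.14) in aged males, Grhl3 (0.0055 to 0.21) and Klf4 (-0.34 to -0.027) in aged females, Prdm1 in young males (-0.31 to -0.063) and Tfap2c in young females (-0.22 to -0.034). Where 1 library remained in a group, it was assumed to vary like the other. The values carry no read counts, so the depth behind each is unknown.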
